A study of Mus musculus with 4 samples.

Results

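RNA-Seq reads of the enzymes that burn fatty acids in mitochondria and of the TCA cycle with its pyruvate entry were read in mouse brown preadipocytes at day 0 and at day 2 of adipogenesis, with and without *Mll4*. The 37 genes were listed by name, with earlier results of these data known, 20 for the oxidation arm and 17 for the TCA arm, out of 22463 gene symbols in the files. All 37 were found, each represented by the RefSeq transcript with most reads, and 36 were expressed, which means above 1 RPKM (reads on exons, scaled by exon length and by mapped reads) at either day in Ad-GFP cultures. *Cpt1b*, the muscle form of the outer carnitine palmitoyltransferase, was the exception, at 0.904 and 0.616 RPKM in Ad-GFP cultures and 0.797 and 0.747 RPKM in Ad-Cre cultures at day 0 and day 2. All cells came from C57BL/6J embryos at E18.5, were immortalized with SV40T and carried *Mll3*-/- and a floxed *Mll4*. Infection with adenoviral GFP (Ad-GFP) left them *Mll3*-/- and infection with adenoviral Cre (Ad-Cre) made them *Mll3*-/-*Mll4*-/-, so the control lacked MLL3 too, although its labels call it WT. Day 0 was confluent preadipocytes, and day 2 followed treatment with insulin, T3, indomethacin, dexamethasone and IBMX, so that days and inducers cannot be told apart. Each of the 4 conditions had 1 library. No test between conditions could therefore be run, and the 95% intervals of a ratio between 2 libraries are exact (Clopper-Pearson) binomial intervals of the ratio of reads, which cover counting error only and compare libraries, not conditions.

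Fatty acids enter mitochondria as carnitine esters and are then shortened in rounds of dehydrogenation, hydration, a further dehydrogenation and thiolysis, each round releasing acetyl-CoA. Electrons from the first step pass to the electron transfer flavoprotein and on to ubiquinone. Acetyl-CoA from fatty acids, or from pyruvate through pyruvate dehydrogenase, is oxidized in the TCA cycle, while pyruvate carboxylase makes oxaloacetate that refills the cycle and, in adipocytes, serves fatty acid and glycerol synthesis. Brown fat is known for its density of mitochondria and its high capacity for both pathways.

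Over all transcripts, reads counted on exons summed to between 15831915 and 22099995 per library, where a read can count in several transcripts of a gene. With 1 transcript per symbol the sums ran from 11177446 to 15558923, and the denominators of RPKM ran from 17198448 to 22986362. The sum over all transcripts was 87.8% of the denominator in Ad-Cre cultures at day 2 against 96.1% to 99.4% in the other 3 libraries. This ratio is not a share of mapped reads. The whole *Mll4* transcript, listed as *Kmt2d*, held 6304 and 8530 reads in Ad-GFP cultures and 6316 and 5595 in Ad-Cre cultures at day 0 and day 2, a count over all exons that does not show the loss of the floxed ones. The day 2 ratio, Ad-Cre over Ad-GFP, moved with exon length over all 11541 expressed genes, from a median log2 ratio of 0.49 in the shortest of 20 length bins to −0.81 in the longest. For day 2 over day 0, these bins had medians of 0.85 and −0.67 in Ad-Cre cultures, but 0.16 and 0.16 in Ad-GFP cultures. Between the infections at day 0 they were −0.24 and −0.01. The trend was thus largest in the ratios that use the Ad-Cre library of day 2, and its cause was not tested. Where subtracting the trend over exon length changed whether a member was past the 2.5-fold cutoff, the changed ratio is given as well. The brown identity markers *Ebf2* (4.77 to 16.1 RPKM) and *Zic1* (1.11 to 5.21 RPKM) were detected in all 4 libraries, whereas *Ucp1* and *Cox8b* had at most 1 read, *Dio2* at most 5 and *Cidea* none, so defining markers of mature brown adipocytes were at or near 0 at both days. *Prdm16* had 0.554 to 2.14 RPKM and *Elovl3* at most 31 reads. Pan-hematopoietic *Ptprc* and the muscle genes *Myog*, *Myh3* and *Myh8* had no read, and the markers of macrophages, endothelium and hepatocytes summed to at most 0.405, 0.345 and 0.140 RPKM in any library. Of the 8 muscle markers only *Acta1*, skeletal actin, was expressed, with 18.4 and 0.364 RPKM in Ad-GFP cultures and 48.5 and 3.41 RPKM in Ad-Cre cultures, while *Myod1* and *Ckm* had at most 1 read. *Des* and *Tnnt3*, muscle structural genes under 1 RPKM in Ad-GFP cultures, had no read in Ad-Cre cultures at day 0 and 49 and 21 reads, 1.26 and 1.08 RPKM, at day 2.

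Per kilobase, the TCA genes summed to more than the oxidation genes in every library, while the median levels of the arms lay close together in Ad-GFP cultures at day 0, at 19.0 RPKM for TCA and 19.3 RPKM for oxidation genes. The medians were 54.5 and 31.7 RPKM in Ad-GFP cultures at day 2, and 19.7 and 13.3 RPKM at day 0 and 34.02 and 21.1 RPKM at day 2 in Ad-Cre cultures. *Mdh2*, mitochondrial malate dehydrogenase, had the highest deposited mean level of the TCA arm, with 152 and 292 RPKM in Ad-GFP cultures at day 0 and day 2 and 154 and 238.1 RPKM in Ad-Cre cultures. *Cs*, citrate synthase, had 80.4 and 190.2 RPKM in Ad-GFP cultures and 104 and 75.3 RPKM in Ad-Cre cultures. *Pdk2*, a kinase that inactivates pyruvate dehydrogenase and a gene of low level, had 4.73 and 9.48 RPKM in Ad-GFP cultures and 4.30 and 8.63 RPKM in Ad-Cre cultures, close to 2-fold more at day 2 in either. In the oxidation arm, *Etfb* and *Etfa* encode the subunits of the electron transfer flavoprotein, and *Etfb* had the highest deposited mean level, with 40.5 and 81.1 RPKM in Ad-GFP cultures and 25.2 and 100.9 RPKM in Ad-Cre cultures. Summed over the arm, the oxidation genes held 326.5 and 695.1 RPKM in Ad-GFP cultures and 253.9 and 520.9 RPKM in Ad-Cre cultures at day 0 and day 2. The TCA genes summed to 544.8 and 1646 RPKM in Ad-GFP cultures and 558.0 and 762.4 RPKM in Ad-Cre cultures. Both sums were highest in Ad-GFP cultures at day 2, and at day 0 the TCA sums of the infections lay close together.

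**Figure D1:**
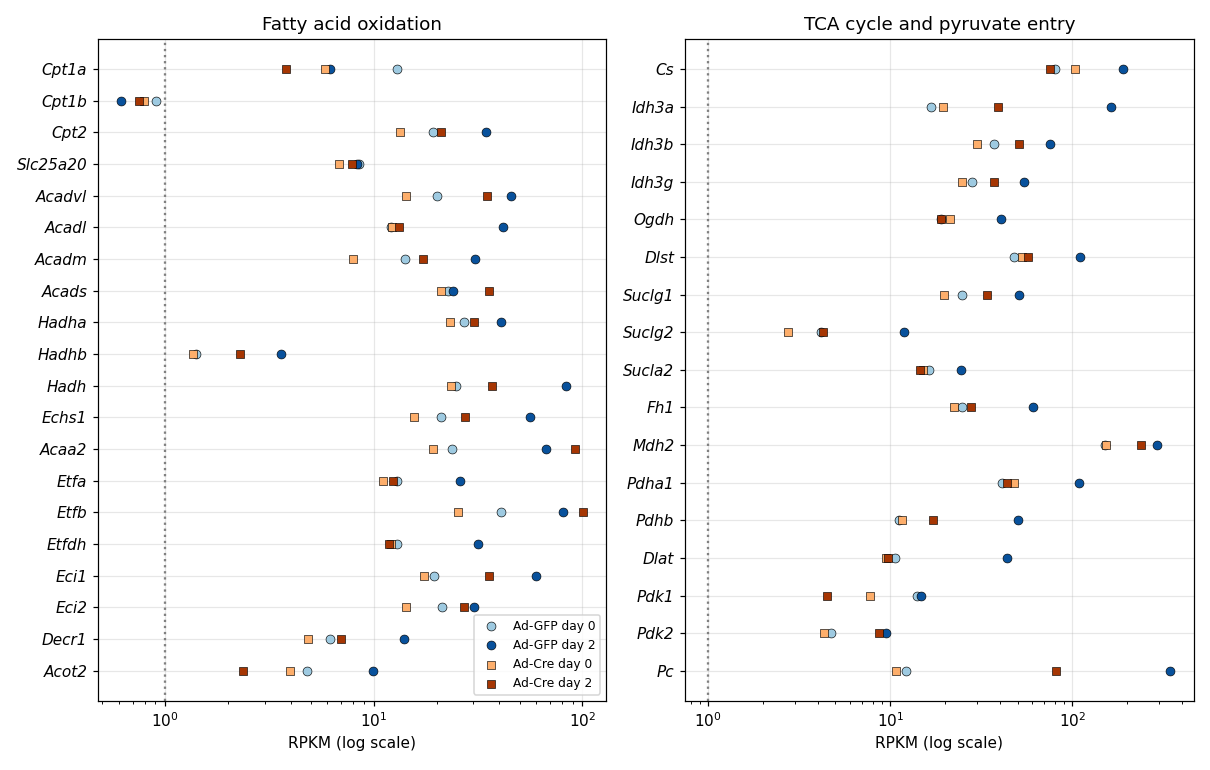
RPKM (log scale) of the 37 genes in the 4 libraries, with oxidation genes on the left and TCA cycle and pyruvate entry genes on the right; circles are Ad-GFP cultures, squares Ad-Cre cultures, pale symbols day 0 and dark symbols day 2, and the dotted line marks 1 RPKM. The dark circle of Ad-GFP cultures at day 2 lies farthest right for most TCA genes, reaching 346 RPKM for *Pc*, while *Cpt1a* has its highest level in Ad-GFP cultures at day 0 (12.9 RPKM).

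*Hadha* and *Hadhb* encode the subunits of the mitochondrial trifunctional protein, which carries out the later steps on long chains, and the genes lie head to head on chromosome 5 of NCBI37/mm9. *Hadha* runs on the minus strand from 30444841 to 30481702 and *Hadhb* on the plus strand from 30481788 to 30511133. The 85 bases between the annotated genes, chr5:30481703-30481787 on the plus strand, are shown because both transcription units start at their ends.

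Between Hadha and Hadhb: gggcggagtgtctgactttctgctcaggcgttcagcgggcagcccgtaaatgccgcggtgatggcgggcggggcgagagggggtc

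Their deposited levels were far apart. *Hadha* had 27.2 and 40.9 RPKM in Ad-GFP cultures and 23.1 and 30.2 RPKM in Ad-Cre cultures at day 0 and day 2. *Hadhb* had 1.40 and 3.59 RPKM in Ad-GFP cultures and 1.37 and 2.28 RPKM in Ad-Cre cultures. Of 50-base windows on the *Hadhb* transcript, 94.3% matched another place in the genome with at most 2 mismatches, against 0.227% for *Hadha*. How reads with several matches were treated is not given in the sources used here, so the level of *Hadhb* cannot be set beside that of *Hadha*. The same holds for the levels of 6 other members with over 20% of such windows, *Pdhb* (79.8%), *Suclg2* (64.5%), *Etfa* (61.7%), *Acadm* (48.7%), *Acot2* (42.2%) and *Cs* (26.1%). Ratios between libraries of these 7 genes rest on the reads that were kept.

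The first comparison asked how the genes changed during adipogenesis when MLL4 was present. In Ad-GFP cultures, 34 of the 36 expressed members were higher at day 2 than at day 0, as were 6559 of all 11541 expressed genes. The median log2 ratio was 1.12 for the oxidation arm and 1.20 for the TCA arm against 0.15 over all expressed genes. The 95% interval lay above 0 for 16 of 19 oxidation genes and 16 of 17 TCA genes, and below 0 for *Cpt1a* alone. Intervals off 0 were counted for members only, here and below. Over 2.5-fold higher, the cutoff of the study, were 6 of 19 oxidation genes and 6 of 17 TCA genes, where 8.38% of all expressed genes were. With the trend over exon length subtracted 5 and 4 of them stayed past it, where 783 of all 11541 expressed genes were past it. No member was over 2.5-fold lower, where 12.7% of all expressed genes were. RNA of the whole culture was measured, in which more cells of a type and more RNA per cell cannot be told apart. All 7 adipocyte markers moved too, with a median log2 ratio of 6.62 (*Fabp4*, the adipocyte fatty acid binding protein, had 4.17 and 893 RPKM) and summed levels of 30.4 RPKM at day 0 and 2005 RPKM at day 2. Their part in the change of the 37 genes was not tested.

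Of the 3 expressed carnitine shuttle genes, 1 was higher at day 2. *Cpt1a*, the outer membrane carnitine palmitoyltransferase of most tissues and the regulated gate of the pathway, had 12.9 and 6.16 RPKM in Ad-GFP cultures and 5.87 and 3.82 RPKM in Ad-Cre cultures. It had the lowest ratio of the members in Ad-GFP cultures, with a log2 value of −1.06 (95% interval −1.21 to −0.91) that stayed inside 2.5-fold. *Slc25a20*, the carnitine-acylcarnitine translocase, had 8.54 and 8.34 RPKM in Ad-GFP cultures, a log2 ratio of −0.03 (−0.27 to 0.20). *Cpt2*, the inner membrane transferase, had 19.3 and 34.6 RPKM, a log2 ratio of 0.84 (0.72 to 0.97).

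Among the acyl-CoA dehydrogenases, which open each round for chains of different length, the long-chain enzyme *Acadl* was the one past 2.5-fold in Ad-GFP cultures. It had 12.1 and 41.8 RPKM in Ad-GFP cultures and 12.2 and 13.2 RPKM in Ad-Cre cultures at day 0 and day 2, so the 3 libraries other than Ad-GFP at day 2 were alike. *Acadvl*, for very long chains, and *Acadm*, for medium chains, had log2 ratios of 1.18 (1.06 to 1.30) and 1.12 (0.97 to 1.28). *Acads*, for short chains, had 22.6 and 24.1 RPKM, a log2 ratio of 0.09 (−0.05 to 0.23).

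The enzymes of hydration, the later dehydrogenation and thiolysis stood highest in the arm, with 4 of 5 past 2.5-fold. *Hadh*, the short-chain 3-hydroxyacyl-CoA dehydrogenase, had 24.8 and 83.4 RPKM in Ad-GFP cultures and 23.6 and 36.8 RPKM in Ad-Cre cultures. *Acaa2*, a mitochondrial thiolase, had 23.6 and 66.8 RPKM in Ad-GFP cultures and 19.2 and 92.6 RPKM in Ad-Cre cultures. *Echs1*, the short-chain enoyl-CoA hydratase, had 21.1 and 56.3 RPKM in Ad-GFP cultures and 15.6 and 27.4 RPKM in Ad-Cre cultures. These genes were more abundant at day 2 in either infection, and Ad-Cre cultures were above Ad-GFP cultures at day 2 for *Acaa2* only. *Hadhb* was the fourth, with 47 and 161 reads in Ad-GFP cultures, and its log2 ratio of 1.36 had a 95% interval of 0.88 to 1.86 that reached below the cutoff of 1.32, and with the trend over exon length subtracted it was 1.28. *Hadha* was 1.51-fold higher. The enoyl-CoA isomerase *Eci1*, which readies unsaturated chains, was the auxiliary enzyme past the cutoff, with 19.5 and 59.7 RPKM in Ad-GFP cultures and 17.4 and 35.7 RPKM in Ad-Cre cultures. Its relatives in this role, the isomerase *Eci2* and the dienoyl-CoA reductase *Decr1*, were 1.43-fold and 2.26-fold higher, and the acyl-CoA thioesterase *Acot2* was 2.07-fold higher. Just inside the cutoff was *Etfdh*, the flavoprotein's ubiquinone oxidoreductase, at 2.46-fold, while *Etfa* and *Etfb* were 1.99-fold and 2.00-fold higher.

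In the TCA arm, the largest ratio belonged to *Pc*, pyruvate carboxylase, which is known as an adipogenic gene as well as an anaplerotic enzyme. *Pc* had 12.2 and 346 RPKM in Ad-GFP cultures and 10.7 and 81.5 RPKM in Ad-Cre cultures, so it was 28.4-fold higher at day 2 in Ad-GFP cultures and 7.62-fold higher in Ad-Cre cultures. The pyruvate dehydrogenase subunits followed. *Pdhb*, the E1 beta subunit, had 11.2 and 50.3 RPKM in Ad-GFP cultures and 11.6 and 17.3 RPKM in Ad-Cre cultures. *Dlat*, the E2 acetyltransferase, had 10.6 and 44.0 RPKM in Ad-GFP cultures and 9.46 and 9.74 RPKM in Ad-Cre cultures. *Pdha1*, the X-linked E1 alpha subunit, had 41.2 and 109 RPKM in Ad-GFP cultures and 48.1 and 43.6 RPKM in Ad-Cre cultures. For each of these 3 subunits the day 0 levels of the infections lay close together, and Ad-GFP cultures at day 2 were apart from the rest. With the trend over exon length subtracted, the log2 ratio of *Pdha1* in Ad-GFP cultures went from 1.40 to 1.22, under the cutoff. *Pdk1*, a kinase that switches the complex off, had 14.0 and 14.7 RPKM in Ad-GFP cultures, a log2 ratio of 0.07 (−0.04 to 0.17) that became −0.07 with the trend subtracted.

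Within the cycle, the subunits of NAD-dependent isocitrate dehydrogenase changed unequally. *Idh3a*, the catalytic subunit, had 16.7 and 163 RPKM in Ad-GFP cultures and 19.5 and 39.0 RPKM in Ad-Cre cultures, 9.76-fold higher at day 2 in Ad-GFP cultures. Its regulatory partners *Idh3b* and *Idh3g* were 2.04-fold and 1.94-fold higher. At day 0 the level of *Idh3a* was below that of both partners in either infection, and in Ad-GFP cultures at day 2 it was above both. *Suclg2*, the GTP-forming succinyl-CoA ligase subunit, was the remaining TCA member past the cutoff, with 4.18 and 11.9 RPKM in Ad-GFP cultures and 2.74 and 4.26 RPKM in Ad-Cre cultures. Its log2 ratio of 1.51 in Ad-GFP cultures had an interval of 1.26 to 1.77 that reached below the cutoff, and it was 1.30 with the trend subtracted. The other succinyl-CoA ligase subunits, *Suclg1* and the ATP-forming *Sucla2*, were at log2 ratios of 1.03 and 0.58 in Ad-GFP cultures. *Ogdh* and *Dlst*, the E1 and E2 of 2-oxoglutarate dehydrogenase, were 2.13-fold and 2.30-fold higher, and fumarase (*Fh1*), *Cs* and *Mdh2* were 2.46-fold, 2.37-fold and 1.92-fold higher.

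Without MLL4, the same interval gave smaller ratios for most members. In Ad-Cre cultures, day 2 over day 0 had a median log2 ratio of 0.67 for the oxidation arm and 0.58 for the TCA arm against −0.01 over all expressed genes, and with the trend over exon length subtracted the arms were at 0.52 and 0.16. Over 2.5-fold higher were 2 oxidation genes, *Acaa2* and *Etfb*, and 1 TCA gene, *Pc*, where 8.66% of all expressed genes were. No member was over 2.5-fold lower, where 10% of all expressed genes were. *Etfb* has one of the shortest transcripts of the set at 0.815 kb, and with the trend subtracted its log2 ratio of 2.00 became 1.27, under the cutoff, while that of *Acaa2* went from 2.27 to 1.85. *Pdk1* and *Acot2* had the lowest ratios, 1.71-fold and 1.67-fold lower at day 2. All 7 adipocyte markers were over 2.5-fold higher at day 2 in Ad-Cre cultures too, with a median log2 ratio of 4.57 and summed levels of 15.8 and 491.8 RPKM, and their part in the change of the members was not tested.

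The difference between the infections in this change was read directly, as the log2 ratio of day 2 to day 0 in Ad-Cre cultures minus that in Ad-GFP cultures, a quantity that uses all 4 libraries and whose 95% interval is a normal approximation from the read counts. Over all expressed genes the median log2 ratios of day 2 to day 0 were 0.15 in Ad-GFP and −0.01 in Ad-Cre cultures. How many of them had a difference below 0 was not counted, so the counts here cover members only. For the TCA arm the difference was below 0, interval included, for 16 of 17 genes, and for *Pdk2* it was −0.00 (−0.35 to 0.35). The lowest values were those of *Idh3a* (−2.28, −2.45 to −2.12), *Dlat* (−2.01, −2.19 to −1.82) and *Pc* (−1.90, −2.04 to −1.76). The oxidation arm was mixed. The interval lay below 0 for 9 of 19 genes, led by *Acot2* (−1.79, −2.23 to −1.35), *Acadl* (−1.68, −1.92 to −1.43) and *Etfdh* (−1.32, −1.55 to −1.10), held 0 for 5 and lay above 0 for 5. The 5 genes above 0 were *Etfb* (1.00, 0.79 to 1.21), *Acaa2* (0.77, 0.59 to 0.96), *Acads* (0.67, 0.48 to 0.86), *Cpt1a* (0.44, 0.19 to 0.70) and *Eci2* (0.41, 0.18 to 0.63). With the trend over exon length subtracted from each ratio, the difference for *Hadha*, whose interval had lain below 0 at −0.20, was 0.25, while *Etfb* and *Eci2* were at 0.36 and 0.12. With GC content included, *Etfb* and *Acads* were at −0.15 and −0.05, *Decr1* went from −0.65 to 0.02 and *Pdk1* from −0.84 to 0.07. The difference was below 0 for 16 of 17 TCA genes under either correction.

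**Figure D2:**
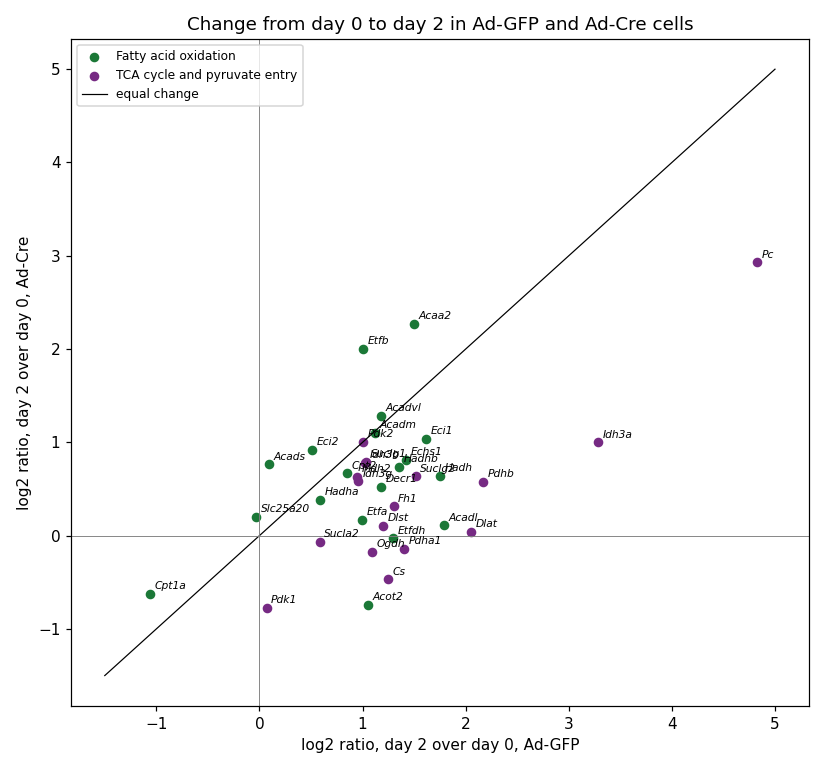
Log2 ratio of day 2 to day 0 in Ad-GFP cultures (x axis) and in Ad-Cre cultures (y axis) for the 36 expressed genes, green for fatty acid oxidation and purple for the TCA cycle and pyruvate entry; the diagonal marks an equal change. *Pc* (4.83 and 2.93) and *Idh3a* (3.29 and 1.00) lie far to the right and below the diagonal, and *Acaa2* and *Etfb*, at 2.27 and 2.00 on the y axis, lie above it.

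Before induction, the arms differed less between the infections than at day 2. Lower in Ad-Cre cultures were 18 of 19 oxidation genes and 10 of 17 TCA genes, as were 6043 of all 11541 expressed genes. At day 0 the median log2 ratios, Ad-Cre over Ad-GFP, were −0.30 in the oxidation arm and −0.14 in the TCA arm against −0.02 over all expressed genes, and no member was over 2.5-fold higher (1.27% of all expressed genes were) or over 2.5-fold lower (4.12% were). The interval lay below 0 for 12 of 19 oxidation genes and above 0 for none, and for the TCA arm it lay below 0 for 7 and above 0 for 5 of 17. *Cpt1a* was the lowest, at −1.13 (−1.29 to −0.97), followed by *Pdk1* at −0.86 (−0.99 to −0.73) and *Acadm* at −0.82 (−1.04 to −0.60). *Cs* was the highest, at 0.37 (0.31 to 0.43). The cultures were not alike at this point in other genes: 4 of the 6 preadipocyte markers measured were over 2.5-fold lower in Ad-Cre cultures, *Pdgfra* (73.6 and 9.72 RPKM), *Dlk1* (141 and 10.1 RPKM), *Cd34* (11.1 and 0.352 RPKM) and *Ly6a* (9.90 and 0.248 RPKM). The others, *Pdgfrb* and *Thy1*, stayed inside 2.5-fold, and 1 of them was higher in Ad-Cre cultures, at a log2 ratio of 0.45. Over all 6 the summed level was 620.0 RPKM in Ad-GFP cultures and 326.2 RPKM in Ad-Cre cultures, and its part in the ratios of the members was not tested.

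At day 2, the comparison of the infections showed the TCA arm lower in Ad-Cre cultures than the oxidation arm. Median log2 ratios, Ad-Cre over Ad-GFP, were −1.13 in the TCA arm and −0.71 in the oxidation arm, against −0.16 over all expressed genes. All 17 TCA genes and 16 of 19 oxidation genes were lower in Ad-Cre cultures, as were 6586 of all 11541 expressed genes. The interval lay wholly below 0 for 16 of these TCA genes and 15 of these oxidation genes. Over 2.5-fold lower were 7 TCA genes and 3 oxidation genes, where 10.1% of all expressed genes were, and no member was over 2.5-fold higher, where 8.14% were. Because expression was defined in Ad-GFP cultures, a gene found in Ad-Cre cultures alone could not enter these counts. All 7 adipocyte markers were over 2.5-fold lower as well, with log2 ratios from −2.36 to −1.68 and summed levels of 2005 RPKM in Ad-GFP and 491.8 RPKM in Ad-Cre cultures, and their part in the ratios of the members was not tested.

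The 7 TCA genes were *Dlat* (4.52-fold lower), *Pc* (4.24-fold), *Idh3a* (4.17-fold), *Pdk1* (3.26-fold), *Pdhb* (2.92-fold), *Suclg2* (2.81-fold) and *Cs* (2.53-fold). Pyruvate entry held 4 of them, and *Pdha1*, with a log2 ratio of −1.32, lay just inside the cutoff. *Pdk1* stood apart from the others in that it opposes the complex and had nearly equal levels at day 0 and day 2 in Ad-GFP cultures, while it had 7.72 RPKM at day 0 and 4.51 RPKM at day 2 in Ad-Cre cultures. The least affected were *Pdk2*, at −0.14 (−0.34 to 0.06), and *Mdh2*, at −0.29 (−0.34 to −0.25). The 3 oxidation genes were *Acot2* (4.18-fold lower, with 9.92 RPKM in Ad-GFP and 2.37 RPKM in Ad-Cre cultures), *Acadl* (3.17-fold) and *Etfdh* (2.68-fold, 31.7 and 11.8 RPKM). *Hadh* (2.27-fold), *Etfa* (2.08-fold) and *Echs1* (2.06-fold) came next, and *Acads* (35.6 against 24.1 RPKM), *Acaa2* and *Etfb* were higher in Ad-Cre cultures, at log2 ratios of 0.56 (0.44 to 0.69), 0.47 (0.39 to 0.55) and 0.31 (0.21 to 0.42).

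**Figure D3:**
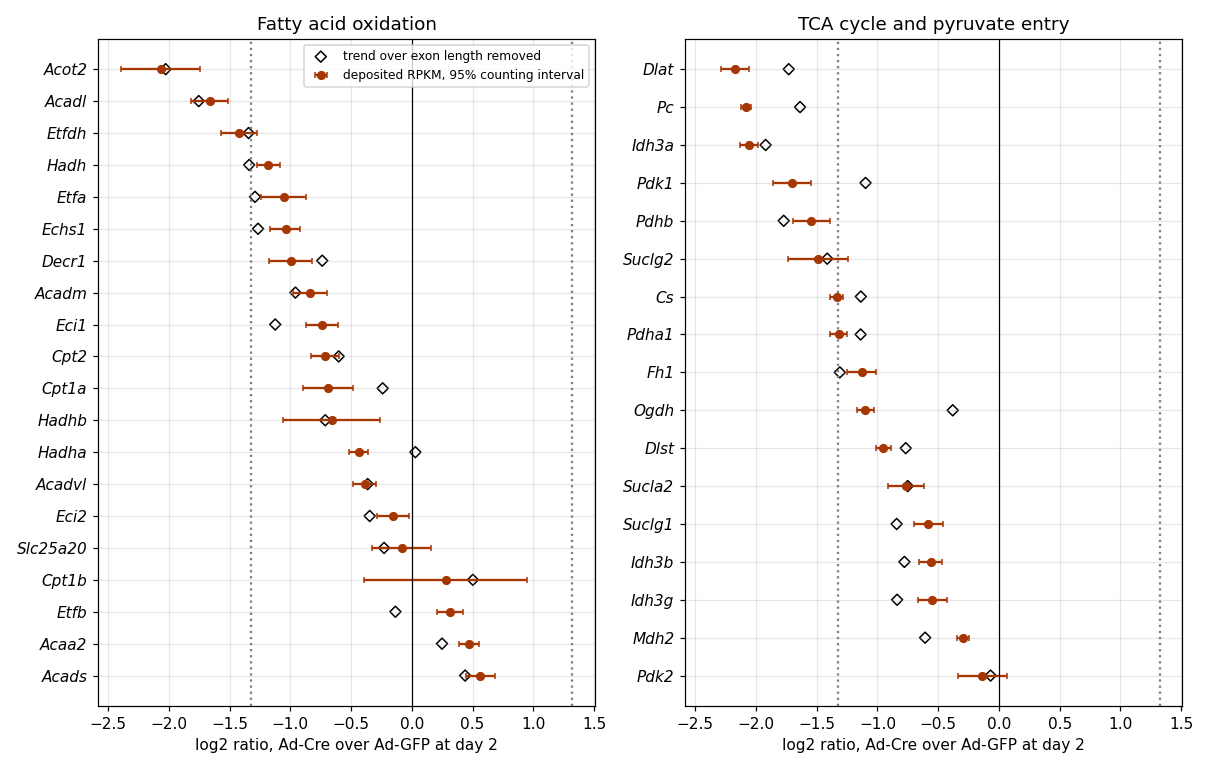
Day 2 log2 ratio, Ad-Cre over Ad-GFP, for each gene, filled circles with 95% counting intervals from the deposited RPKM and open diamonds after subtracting the trend over exon length; dotted lines mark 2.5-fold. All 17 TCA genes lie left of 0 (−2.17 for *Dlat* to −0.14 for *Pdk2*), and the oxidation genes run from −2.06 (*Acot2*) to 0.56 (*Acads*).

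The bases upstream of 4 genes over 2.5-fold lower in Ad-Cre cultures at day 2 are shown. *Acot2* and *Dlat* had the lowest ratio of their arms, and *Etfdh* and *Pdhb* were chosen because they held a motif match, since promoters of a set that moved together invite a look for shared motifs. They are 250 bases before the start site of the RefSeq table (GRCm38.p6), each found once in NCBI37/mm9 by exact match, and for *Etfdh* the 154 of them outside the annotated gene. Capitals mark a motif match. They lie at chr12:85328561-85328810 on the plus strand for *Acot2*, and on the minus strand at chr3:79432786-79432939 for *Etfdh*, chr9:50467886-50468135 for *Dlat* and chr14:9005507-9005756 for *Pdhb*.

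Acot2: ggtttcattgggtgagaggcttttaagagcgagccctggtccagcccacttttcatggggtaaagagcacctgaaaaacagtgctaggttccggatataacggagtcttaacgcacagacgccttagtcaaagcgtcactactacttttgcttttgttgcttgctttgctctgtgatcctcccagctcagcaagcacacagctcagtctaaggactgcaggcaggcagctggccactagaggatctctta
Etfdh: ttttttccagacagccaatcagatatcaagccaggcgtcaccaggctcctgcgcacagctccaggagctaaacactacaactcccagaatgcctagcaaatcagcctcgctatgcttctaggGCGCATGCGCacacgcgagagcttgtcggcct
Dlat: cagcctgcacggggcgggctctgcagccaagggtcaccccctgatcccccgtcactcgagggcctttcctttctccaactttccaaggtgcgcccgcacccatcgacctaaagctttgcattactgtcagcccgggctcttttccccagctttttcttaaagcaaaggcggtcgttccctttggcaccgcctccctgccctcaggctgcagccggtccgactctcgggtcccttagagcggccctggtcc
Pdhb: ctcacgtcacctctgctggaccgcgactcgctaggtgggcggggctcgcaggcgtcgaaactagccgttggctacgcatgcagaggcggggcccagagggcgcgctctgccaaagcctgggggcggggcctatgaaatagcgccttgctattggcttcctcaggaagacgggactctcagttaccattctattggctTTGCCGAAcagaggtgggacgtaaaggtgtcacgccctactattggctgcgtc

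The motifs searched on both strands of the 300 bases around each start site were a nuclear receptor half-site (AAGGTCA), a C/EBP-like site (TTGCNNAA), an NRF-1-like site (GCGCATGCG) and a pair of AGGTCA half-sites 1 base apart with at most 2 mismatches in all, of the kind PPAR and RXR bind. Promoters were in the table for 33 members (not for *Idh3a*, *Decr1*, *Cpt1b* and *Acaa2*). Of the 9 such members over 2.5-fold lower in Ad-Cre cultures, *Etfdh* held the NRF-1-like site, at overlapping positions on both strands of the palindrome shown in capitals, and *Pdhb* held the C/EBP-like site. None of the motifs was in the windows of *Acot2*, *Acadl*, *Dlat*, *Pc*, *Pdk1*, *Suclg2* or *Cs*. Over the 33 members, 2 held the half-site (*Acadm* and *Ogdh*), 3 the C/EBP-like site (*Acads*, *Ogdh* and *Pdhb*), 3 the NRF-1-like site (*Acadm*, *Etfdh* and *Ogdh*) and 5 the pair (*Echs1*, *Etfa*, *Slc25a20*, *Idh3b* and *Sucla2*). Among all 32851 promoters of the table the shares were 4.72%, 10.8%, 1.75% and 3.86%. These are shares of single promoters, whereas a member was counted if any of its promoters matched, so the counts cannot be set directly against them. *Ogdh*, *Pc*, *Pdk1* and *Pdk2* had more than 1 promoter in the table. The matches of *Ogdh*, *Sucla2* and *Slc25a20* lay inside their annotated genes, not upstream of them. Such matches are of letters in these windows and say nothing of binding.

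Exon length and the day 2 ratio moved together, so the calls were read with the trend removed. Respectively at 4.15 and 4.04 kb, *Pc* and *Dlat* lay among long transcripts that were lower in Ad-Cre cultures in general, and their log2 ratios moved from −2.08 to −1.64 and from −2.17 to −1.73. *Ogdh*, the longest at 6.69 kb, moved from −1.10 to −0.38, and *Pdk1*, at 5.14 kb, moved from −1.71 to −1.10 and lost its call, as did *Cs* (−1.34 to −1.14). *Acot2*, *Acadl*, *Etfdh*, *Idh3a*, *Suclg2* and *Pdhb* stayed past the cutoff, and *Hadh* joined them at −1.34, where 748 of all 11541 expressed genes were past it. Short transcripts moved the other way: *Etfb* went from 0.31 to −0.14, *Mdh2* from −0.29 to −0.61 and *Eci1* from −0.74 to −1.12, while *Hadha*, at 3.84 kb, went from −0.44 to 0.03. The arm medians with the trend removed were −0.71 for oxidation and −1.10 for the TCA arm. *Etfb* and *Hadha* were the members that changed sign with length alone. With GC content included, a correction added after the data were seen, *Acads* and *Etfb* were lower in Ad-Cre cultures, at −0.20 and −0.53, and the higher level of *Acaa2* in Ad-Cre cultures remained at 0.26.

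**Figure D4:**
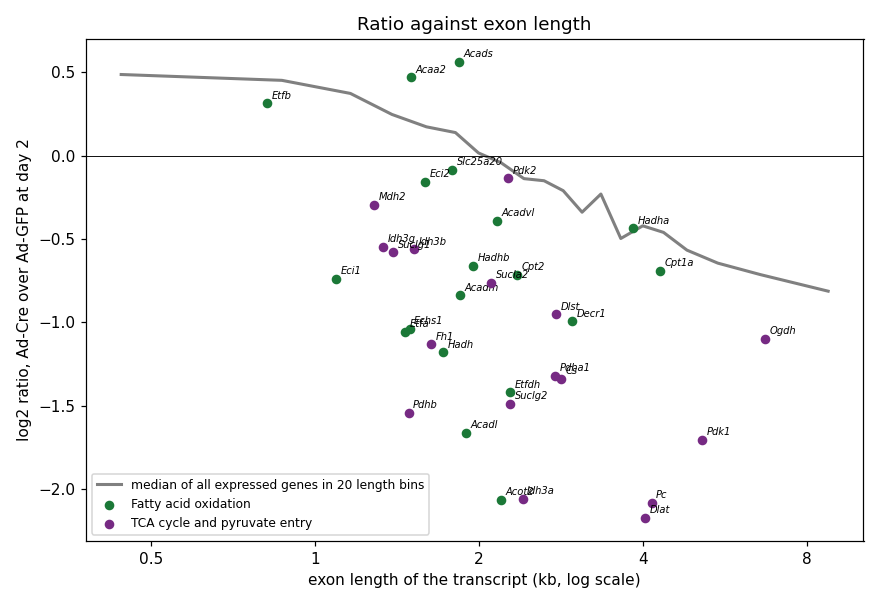
Day 2 log2 ratio, Ad-Cre over Ad-GFP, against exon length in kb (log scale) for the 36 expressed genes, with the median of all expressed genes in 20 length bins as a grey line that runs from 0.49 to −0.81. Most members lie below the line at their own length, and on the y axis *Dlat*, *Pc*, *Acot2* and *Idh3a* are lowest, while *Acads* and *Acaa2* lie above it.

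Genes of the same or neighbouring pathways outside the 37 were read in the same way. A first list held 26 expressed genes of odd-chain and other fatty acid oxidation, branched-chain amino acid breakdown and linked steps. Of these, 11 were over 2.5-fold higher at day 2 in Ad-GFP cultures (8.38% of all expressed genes were). Among the 11 were the propionyl-CoA carboxylase subunit *Pcca* (2.93 and 14.0 RPKM) and malonyl-CoA decarboxylase *Mlycd* (5.26 and 22.2 RPKM). The other 9 were *Mcee*, *Hibadh*, *Crat*, *Hibch*, *Mut*, *Ech1*, *Acad11*, *Ivd* and *Acat1*, at log2 ratios of 1.39 to 2.08. In Ad-Cre cultures *Mlycd* alone was past the cutoff upward (1.72) and the thioesterase *Acot9* downward (−2.03), where 8.66% and 10% of all expressed genes were. At day 0 *Echdc3* was over 2.5-fold lower with Ad-Cre (−2.06), where 4.12% were. At day 2, 5 of the 26 were over 2.5-fold lower in Ad-Cre cultures (10.1% of all expressed genes were), the carnitine transporter *Slc22a5* (log2 ratio −2.01), methylmalonyl-CoA mutase *Mut* (−1.68), *Pcca* (−1.43), carnitine acetyltransferase *Crat* (−1.39) and *Hibadh* of valine breakdown (−1.33). *Cpt1c*, a brain carnitine palmitoyltransferase relative, went the other way, with 20.3 and 7.60 RPKM in Ad-GFP cultures and 19.8 and 38.7 RPKM in Ad-Cre cultures. The median of the 26 was −0.88, or −0.68 with the trend over exon length removed, when 9 were past the cutoff upward in Ad-GFP cultures and 3 were past it downward between the infections. With the trend removed, 783 and 748 of all 11541 expressed genes were past the cutoff in these comparisons.

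Of 25 expressed genes around the TCA cycle, 8 were over 2.5-fold higher at day 2 in Ad-GFP cultures and 7 were over 2.5-fold lower with Ad-Cre at that day, against the same 8.38% and 10.1% of all expressed genes. Those higher included *Aco1*, *Dld*, *Mpc1*, *Sdhd*, *Mpc2*, *Pdpr* and *Pdk4*, at log2 ratios of 1.34 to 2.06. From day 0 to day 2 in Ad-Cre cultures, 2 were past the cutoff upward, *Mpc2* (1.68) and *Pdk4* (1.61), where 8.66% of all expressed genes were. Another 2 were past it downward, *Pdk3* (−1.33) and the lipogenic citrate lyase *Acly* (−1.48), where 10% were. Between the infections at day 2, the cytosolic enzymes *Aco1* and *Idh1* were at log2 ratios of −1.89 and −1.53. *Dld*, the E3 shared by the pyruvate and 2-oxoglutarate dehydrogenases, was at −1.49, the pyruvate carrier subunit *Mpc1* at −1.35, the phosphatase regulator *Pdpr* at −2.27 and the kinase *Pdk4* at −1.83. *Pdk4* was already apart at day 0, with 9.38 RPKM in Ad-GFP and 2.18 RPKM in Ad-Cre cultures. By contrast, NADP-dependent *Idh2* had 98.1 RPKM in Ad-GFP and 141 RPKM in Ad-Cre cultures at day 2, a log2 ratio of 0.53. The median of the 25 was −0.72, or −0.66 with the trend removed, when the counts were 6 and 9, against 783 and 748 of all 11541 expressed genes.

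Other mitochondrial genes differed in size of ratio. Over 26 genes of import and mitochondrial structure the median log2 ratio at day 2 was −0.64, and 4 were over 2.5-fold lower in Ad-Cre cultures, where 10.1% of all expressed genes were. They were the chaperones *Hspa9* (317 against 85.5 RPKM) and *Hspd1* (168 against 51.2 RPKM), the fusion protein *Opa1* and the receptor *Tomm70a*. With the trend removed 3 were past the cutoff, where 748 of all 11541 expressed genes were. Over 46 respiratory chain genes the median was −0.13, with none past 2.5-fold in either direction. Their transcripts are short, with a median of 0.765 kb against 1.84 kb for the oxidation and 2.28 kb for the TCA arm, and with the trend removed their median was −0.54 and 1 was past the cutoff, the complex III subunit *Uqcrc2*, at −1.41 against −1.31 as deposited. From day 0 to day 2 in Ad-GFP cultures, 4 of the 26 import and structure genes were past 2.5-fold upward. They were *Hspd1*, *Hspa9*, *Hspe1* and the protease *Lonp1*. Of the 46 respiratory chain genes 1 was past it upward, *Cyc1*, where 8.38% of all expressed genes were. In Ad-Cre cultures 9 respiratory chain genes were, *Ndufa1*, *Ndufa2*, *Ndufb9*, *Ndufb10*, *Ndufs7*, *Uqcrq*, *Cox4i1*, *Atp5e* and *Atp5h*, where 8.66% of all expressed genes were. With the trend removed 0 were, against 798 of all 11541 expressed genes. For genes that control these pathways, *Ppargc1b*, a coactivator of mitochondrial genes, had 0.525 and 27.2 RPKM in Ad-GFP cultures and 0.519 and 7.49 RPKM in Ad-Cre cultures. *Pparg*, the adipogenic nuclear receptor, had 3.29 and 38.5 RPKM in Ad-GFP cultures and 0.994 and 7.53 RPKM in Ad-Cre cultures. Both were over 2.5-fold lower in Ad-Cre cultures at day 2. The other 5 expressed regulators, *Ppard*, *Esrra*, *Nrf1*, *Gabpa* and *Tfam*, had log2 ratios between −0.83 and −0.16. *Esrra*, an estrogen-related receptor, was past 2.5-fold upward from day 0 to day 2 in Ad-GFP cultures, from 16.2 to 51.1 RPKM, and had 22.7 and 39.3 RPKM in Ad-Cre cultures. *Ppargc1a*, the coactivator linked with brown fat thermogenesis, had at most 9 reads in any library. *Ppara* and *Esrrg*, at most 93 and 11 reads, were not expressed by the cutoff either.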

How the data were processed

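RNA-Seq was analysed from 4 libraries of immortalized brown preadipocytes, 1 per condition. The sample titles gave day 0 or day 2 and WT or MLL4 KO. WT was read as Ad-GFP and MLL4 KO as Ad-Cre from the description in the study. The authors aligned 50-base reads to NCBI37/mm9 and deposited the read count of each of 29082 RefSeq transcripts, as whole numbers without normalization, and the RPKM computed from it by exon length and mapped reads. Strand and the treatment of reads with several matches are not given in the sources used here. Mapped reads limit precision: 3 reads on 1 kb equal between 0.131 and 0.174 RPKM.

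Symbols came from RefSeq (GRCm38.p6) for 97.8% of transcripts, with *Pc* listed as *Pcx*, and coordinates from GENCODE vM1 on NCBI37/mm9. Each symbol was represented by its transcript with most reads. Members had 1 transcript for 34 of 37 genes. Ratios are of deposited RPKM, with exact binomial 95% intervals from scipy 1.17.1, and differences of log2 ratios have normal approximations from read counts. Cutoffs (RPKM above 1 in Ad-GFP cultures, 2.5-fold) follow the study's methods. Without replicates, no test was made. TMM factors used edgeR 4.0.16 in R 4.3.3 without its tests. Length trends were medians of 20 bins over expressed genes, and with GC content fitted in 5 rounds (GC content known for 94.0% of expressed genes). Windows of 50 bases were matched with blastn 2.17.0. The remaining work ran in Python 3.11.15 with pandas 2.3.3, numpy 2.4.6 and, for plots, matplotlib 3.10.9. The ratio intervals and the 2.5-fold call were tested on simulated reads that held counting error only. The trend corrections, the differences of log2 ratios and the motif search were not.

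Values are printed for all members past 2.5-fold in any comparison and for those with the highest and lowest levels and ratios, and other members are given by ratio, level or count. Other listed pathway genes were named where past 2.5-fold, except for an item that is not reported here. The members, gene lists and marker lists were chosen with earlier results of these data known. Of the alternative settings, 12 changed library scaling, pseudocount, filter, transcript, length, cutoff and interval, and 2 more, with the corrections of the difference of rises, were added after seeing the data.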

Additional observations from a re-analysis of the deposited data

Results flagged for a closer look

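For 4 of the 36 expressed members, the change from day 0 to day 2 went in opposite directions in the infections, with the 95% counting interval off 0 in both. How many of all expressed genes met the same rule was not counted, so this count covers members only. With 1 library per condition, the difference was not tested. Log2 ratios are of day 2 over day 0. *Acot2* was at 1.05 with Ad-GFP and at −0.74 with Ad-Cre (94 reads at day 2). *Cs* was at 1.24 and −0.47, on 3839 to 12366 reads per library. *Ogdh* was at 1.09 and −0.17, and after subtracting the trend over exon length its value in Ad-Cre cultures was 0.43, in the same direction as in Ad-GFP cultures. *Pdha1* was at 1.40 and −0.14, and its value in Ad-Cre cultures was −0.10 with the trend over length removed and 0.05 with GC content included. *Acot2* and *Cs* kept opposite directions under both corrections, at −0.93 and −0.99 for *Acot2* and at −0.39 and −0.33 for *Cs* in Ad-Cre cultures.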

How the results depend on the processing

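No result changed direction under the alternatives run on the arm medians and counts, and no paired analysis was possible because each condition has 1 library, so that no replicate could be left out either. The main medians were 1.12 (oxidation) and 1.20 (TCA) for day 2 over day 0 in Ad-GFP cultures and −0.71 and −1.13 for Ad-Cre over Ad-GFP at day 2, with 6, 6, 3 and 7 members past 2.5-fold. TMM factors shifted every log2 ratio between the infections at day 2 by 0.16, to medians of −0.56 and −0.97. Scaling by the total of counted reads, with 1 transcript per symbol, shifted them by 0.13, to −1.004 for the TCA arm. Subtracting the trend over exon length gave 1.02 for the TCA arm in Ad-GFP cultures, and with GC content added the 4 medians were 0.94, 1.03, −0.53 and −0.84, with 4 TCA members lower in Ad-Cre cultures (*Cs*, *Pdk1* and *Suclg2* lost). Leaving out the 7 members with over 20% of windows elsewhere gave a TCA median of 1.06 in Ad-GFP cultures and 4 TCA members lower in Ad-Cre cultures (*Cs*, *Pdhb* and *Suclg2* left out). A cutoff of 2-fold gave 12 and 13 members higher in Ad-GFP cultures and 6 oxidation members lower in Ad-Cre cultures, and a cutoff of 4-fold gave 0 oxidation members higher, and 1 oxidation and 3 TCA members lower (*Acot2*, and *Dlat*, *Pc* and *Idh3a*). *Etfdh* lost its call under TMM factors, under the total of counted reads, under length with GC content, and where the whole interval had to pass. *Cs* lost its call under TMM factors, the total of counted reads, the length trend and where the whole interval had to pass. *Suclg2* lost its call with 1 RPKM added and where the whole interval had to pass. Sign changes of single members between the infections at day 2 were those of *Etfb* and *Hadha* (length), *Acads* and *Etfb* (length and GC content) and *Slc25a20* and *Pdk2* (TMM factors). The difference of rises, Ad-Cre minus Ad-GFP, was recomputed after the data were seen, and among members whose interval lay off 0 it changed sign for *Hadha* (0.25 with length, 0.18 with length and GC content) and, with length and GC content, for *Acads* (−0.051), *Etfb* (−0.15), *Decr1* (0.021) and *Pdk1* (0.070). The trend over length left 4 of the 6 TCA members higher in Ad-GFP cultures (*Pdha1* and *Suclg2* lost) and 5 of the 6 oxidation members (*Hadhb* lost). The causes were not tested.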
